A study of Mus musculus with 6 samples.

Results

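Desmosomal cadherins are the adhesion receptors of the desmosome, the junction that rivets neighbouring keratinocytes to one another and to their keratin filaments. They come as desmogleins and desmocollins, and were taken here as every non-control array probe whose gene name was Dsg1a, Dsg1b, Dsg1c, Dsg2, Dsg3, Dsg4, Dsc1, Dsc2 or Dsc3. All 9 genes were found, on 12 of the 39429 non-control probes. The study profiled total RNA of ear skin from 6 mice on 6 one-colour arrays, 1 per mouse, and its title concerns skin inflammation after BP180 dysfunction. Wild-type mice (WT 1, 2 and 3; n = 3) had the NC16A stretch of BP180, which the knockout mice (KO 1, 2 and 7; n = 3) lacked, and the design text gives age and sex as matched. BP180 is collagen XVII, the hemidesmosome protein that anchors basal keratinocytes to the basement membrane and is encoded by Col17a1. The labels give no strain, age, treatment or extent of the deleted segment, and describe the groups only by the presence or absence of NC16A in the whole animal.

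Desmogleins and desmocollins bind each other across the gap between cells, and inside the cell they hold plakoglobin and plakophilins, which in turn hold desmoplakin and the keratin filaments. Their isoforms are layered in skin: Dsg3 and Dsc3 are strongest in the lower epidermis, Dsg1 and Dsc1 in the upper epidermis, Dsg2 and Dsc2 are the broadly expressed forms of simple epithelia and heart, and Dsg4 belongs to the hair follicle, where it is made in the forming hair shaft. In mice, loss of Dsg4 gives the brittle lanceolate hair phenotype, and loss of Dsg3 gives oral erosions and hair loss. Human DSG1 and DSG3 are the autoantigens of pemphigus. Mice carry Dsg1 as the copies Dsg1a, Dsg1b and Dsg1c, where humans have a single gene. The comparison asks whether the hair-type and epidermal-type cadherins moved alike when NC16A was missing.

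The members form one cluster on mouse chromosome 18, in the order Dsc3, Dsc2, Dsc1, Dsg1c, Dsg1a, Dsg1b, Dsg4, Dsg3, Dsg2. Their probes lie between positions 20122029 and 20761236 of mm9, with the desmocollins on the minus strand and the desmogleins on the plus strand. The Dsg4 probe (transcript NM_181564) lies at chr18:20630260-20630319, and starts at base 3415 of that transcript. Dsg2, Dsg3 and Dsc3 had 2 probes each and the other 6 genes had 1. The Dsg1c probe is listed in the array design for transcripts of both Dsg1b and Dsg1c, so signal from these near-identical copies may be shared. No genome annotation of mm9 was used here, so exon and UTR positions of the probes are not given.

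Scaled values are the log2 processed signal relative to the 75th percentile of the same array, so that 0 is the level below which 75% of spots lay. That percentile ranged from 5569 to 7056 intensity units in WT and from 4068 to 4712 in KO, so every KO array was dimmer before scaling. The WT arrays and KO 1 shared a slide (slide 1), and KO 2 and KO 7 were on another (slide 2). A slide was scanned as 1 unit, so slide and scan cannot be told apart. Slide 2 held no WT array, so with slide as a block a difference is that of KO 1 alone against the WT arrays. Such a fit is thus no second measurement beside the difference within slide 1. Col17a1 gave scaled values of 4.32, 4.31 and 4.38 for WT 1, 2 and 3, against 4.38, 4.22 and 4.01 for KO 1, 2 and 7. Whether its probe lies in the deleted segment is unknown, so it checks no label. The keratinocyte markers Krt5 and Krt14 were well above background on all 6 arrays, as were fat, muscle and cartilage markers of the ear. Differences are KO minus WT and their errors are standard errors, from limma across 23675 genes, and a gene passed at a Benjamini-Hochberg adjusted p under 0.05.

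Dsg4, the hair-shaft desmoglein, was the 1 member that passed, and it was higher in KO. Before scaling, WT 1, 2 and 3 gave 19.6, 5.56 and 20.9 intensity units, whereas KO 1, 2 and 7 gave 180, 188 and 85.8. No WT array was well above background and all 3 KO arrays were, and the value of WT 2 was a surrogate that the scanner software put in place of a signal at background. The lowest KO signal was thus above the highest WT signal although the KO arrays were the dimmer ones. On the scaled log2 scale WT 1, 2 and 3 stood at -8.49, -9.97 and -8.13 for Dsg4, and KO 1, 2 and 7 at -4.71, -4.56 and -5.57.

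Against the background level of the WT arrays, the KO mean of Dsg4 was 7.85-fold higher. This bound compares group means and carries no error. It is no minimum over settings, since normexp background correction gave a difference of 1.68 (log2). The limma fit of the measured values gave Dsg4 an adjusted p of 0.016. Dsg4 entered this fit through the KO arrays alone, and in a fit with no filter on dim probes its adjusted p was 0.038. The bound sets the mean of the KO arrays against the mean, over WT arrays, of the higher of the probe's own signal and the lowest signal well above background. The measured mean was -8.86 ± 0.97 in WT against -4.95 ± 0.54 in KO (SD, n = 3 each), a fitted difference of 3.92 ± 0.51 whose size rests on WT values at background. Of all genes tested, 2.0% rose, 0.422% fell and 2.42% passed in either direction. Within slide 1, where KO 1 stands against the WT arrays, the difference was 4.15, and with slide as a block Dsg4 did not pass (adjusted p = 0.15). It did not pass without KO 2 either (adjusted p = 0.064, difference 3.73). In bulk skin RNA, more cells of a type and more RNA per cell cannot be told apart.

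**Figure D1:**
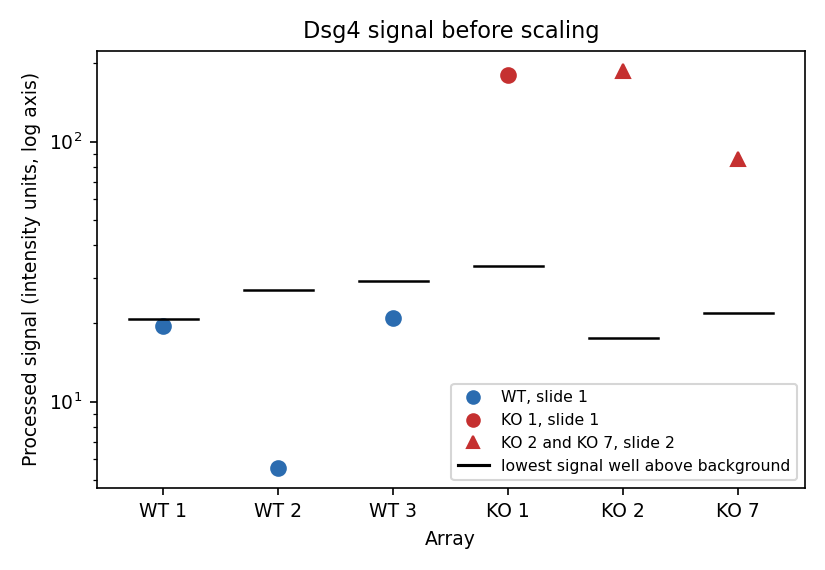
Processed Dsg4 signal before scaling on each array (log axis, intensity units); circles are arrays of slide 1 and triangles those of slide 2, blue is WT and red KO, and each black bar is the lowest signal called well above background on that array. The WT points lie below their bars, at 5.56 to 20.9 units, and the KO points lie above theirs, at 85.8 to 188 units.

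Dsg3, the desmoglein of the lower epidermis and the follicle's outer root sheath, was the next largest difference and missed the threshold. WT 1, 2 and 3 gave scaled values of -0.92, -0.95 and -0.78, against -0.18, 0.24 and 0.56 for KO 1, 2 and 7. Every KO array lay above every WT array, and KO 1, on the slide of the WT arrays, was the lowest of the KO arrays. The difference of 1.09 ± 0.20, or 2.13-fold, had a 95% interval from 0.60 to 1.58 (limma adjusted p = 0.052). The other Dsg3 probe, nearer the 5′ end of the transcript, gave 0.86 ± 0.20 (adjusted p = 0.081). Within slide 1 the probes gave 0.70 and 0.69, and with slide as a block the adjusted p was 0.44. Without KO 1 Dsg3 passed (1.28, adjusted p = 0.024), and that fit has WT and KO on different slides. Before scaling the groups did not overlap for the first probe either, with 2880 to 3738 units in WT and 4156 to 5992 in KO. For the other probe they overlapped, with KO 1 at 1541 units below WT 1 at 1557.

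Dsg1a, of the upper epidermis, was the member with the largest difference towards lower signal in KO, and it did not pass. Scaled values of 3.98, 3.66 and 3.23 for WT 1, 2 and 3 compare with 3.37, 3.1 and 2.47 for KO 1, 2 and 7. The groups overlapped, since KO 1 lay above WT 3, and KO 7 was the lowest array. The difference was -0.65 ± 0.29 with a 95% interval from -1.34 to 0.044 (limma adjusted p = 0.21), and -0.26 within slide 1. In unscaled intensity the groups did not overlap, with 55074 to 111682 units in WT and 22551 to 48584 in KO, so whether they separate depends on the scaling.

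The other Dsg1 copies moved little. Dsg1b had scaled values of 0.35, -0.27 and 0.017 for WT 1, 2 and 3, and of -0.074, 0.32 and -0.032 for KO 1, 2 and 7. Dsg1c had -0.98, -1.60 and -1.27 for WT 1, 2 and 3, and -1.32, -1.0 and -1.26 for KO 1, 2 and 7. For both, the KO arrays lay within the range of the WT arrays. The difference was 0.038 ± 0.20 for Dsg1b (95% interval -0.45 to 0.52) and 0.090 ± 0.19 for Dsg1c (95% interval -0.37 to 0.55), and the sign of both turned with slide as a block or with the array median as the scaling point. Their signals had a Pearson r of 0.98 over the 6 arrays, which is a description of probes that may share signal. Dsg1a had an r of 0.16 with Dsg1b and 0.023 with Dsg1c.

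Dsc1, the desmocollin of the upper epidermis, stood at 1.17, 0.42 and 0.42 for WT 1, 2 and 3, and at 0.57, 0.63 and 0.44 for KO 1, 2 and 7. WT 1 stood above all others and the KO arrays lay between it and the other WT arrays. The difference was -0.13 ± 0.23 (95% interval -0.67 to 0.42, limma adjusted p = 0.73), and it was 0.12 without WT 1. In unscaled intensity every KO array, at 5524 to 6999 units, was below every WT array, at 7461 to 15897.

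Dsc3, the desmocollin of the lower epidermis, differed by 0.26 ± 0.16 (95% interval -0.13 to 0.65, limma adjusted p = 0.32). Its scaled values were 1.40, 1.03 and 1.48 for WT 1, 2 and 3, and 1.44, 1.60 and 1.66 for KO 1, 2 and 7. KO 1 lay among the WT arrays and the slide 2 arrays lay above them. The second Dsc3 probe, which spans 2118 bases of genome and so bridges at least 1 intron, gave 0.38 ± 0.20, and within slide 1 the probes gave 0.14 and 0.10.

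The broadly expressed members showed small differences that did not pass. Dsc2 stood at -2.49, -3.18 and -3.11 for WT 1, 2 and 3, and at -2.22, -2.69 and -2.54 for KO 1, 2 and 7, with WT 1 inside the range of the KO arrays. Its difference was 0.44 ± 0.23 (limma adjusted p = 0.26), with 0.71 within slide 1. Dsg2 stood at -2.45, -2.83 and -2.43 for WT 1, 2 and 3, and at -2.43, -2.26 and -2.32 for KO 1, 2 and 7. The Dsg2 groups were separated by a margin between WT 3 and KO 1 that vanishes on rounding, and they overlapped before scaling. The difference was 0.24 ± 0.16 (adjusted p = 0.35), and the other Dsg2 probe, near the 5′ end of the transcript, gave 0.66 ± 0.38 (adjusted p = 0.29).

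Over the whole family, 1 of 9 members rose, 0 fell and 8 did not pass, where 2.0% of all genes rose and 0.422% fell. The median difference was 0.24, against 0.045 over all genes tested. In value, 7 members were higher and 2 (Dsg1a and Dsc1) were lower in KO, where 54.3% of all genes were higher. At an unadjusted p under 0.05 there were 2 members, Dsg4 and Dsg3, and 26.6% of all genes. The groups failed to overlap for 3 members (Dsg4, Dsg3 and Dsg2), all higher in KO, as they did for 35.3% of all genes (20.7% higher and 14.6% lower in KO), so that share is near the background. Of the 9 members, 8 were well above background on all 6 arrays.

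**Figure D2:**
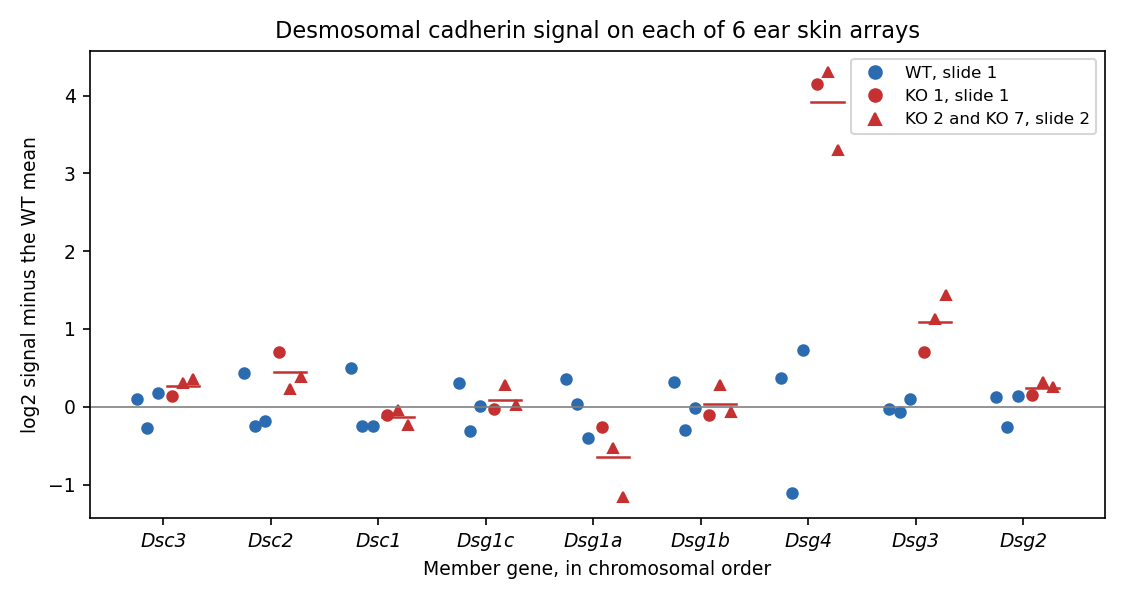
Signal of each member on each array as log2 signal minus the mean of the WT arrays, with genes in chromosomal order; circles are slide 1, triangles slide 2, blue WT, red KO, and the red line is the KO mean. Dsg4 stands 3.30 to 4.30 above the WT mean on the KO arrays, a size that rests on WT values at background, and Dsg3 0.70 to 1.44, while the KO points of Dsg1b, Dsg1c and Dsc1 lie among the WT points.

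**Figure D3:**
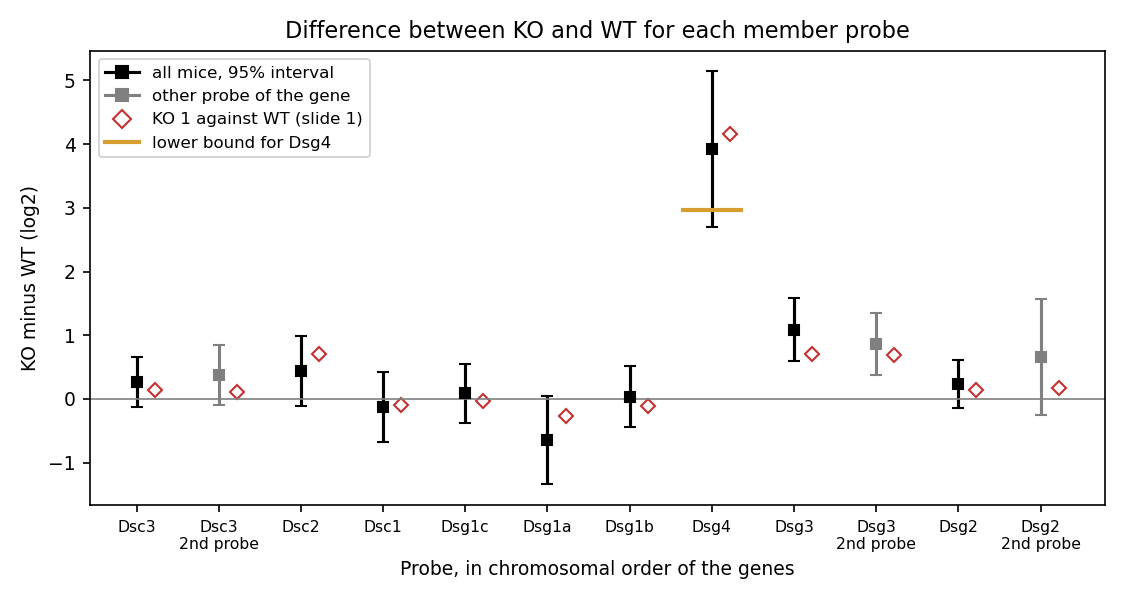
KO minus WT difference of each member probe (log2) with its 95% interval from the limma fit; grey marks the second probe of a gene, and open diamonds set KO 1 against WT within slide 1. The yellow line, marked as the lower bound for Dsg4, sets the KO mean against the WT background level. The intervals of both Dsg3 probes and of Dsg4 lie above 0, and every other interval includes 0.

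Dsg4 was then set against each other member within arrays. This asks whether the hair-type member moved differently from the epidermal members and from the broadly expressed Dsg2 and Dsc2. The quantity is the Dsg4 log2 signal minus the other member's, compared between KO and WT. It was higher in all 3 KO arrays than in all 3 WT arrays for each of the 8 pairs, and each gave p = 0.10 in a two-sided exact permutation test (0.10 after Benjamini-Hochberg adjustment over the 8 pairs), which is the smallest p that 3 against 3 arrays allow. All 8 pairs use the same Dsg4 values, at background in WT, so they repeat 1 separation and are not independent of each other. The difference between the differences was smallest against Dsg3, at 2.83, and largest against Dsg1a, at 4.57. Against Dsg3 it was 0.64 with normexp background correction (exact permutation p = 0.30) and 2.31 without WT 2 (p = 0.20, exact permutation test). With Dsg4 at its bound the values against Dsg3 and Dsg1a were 1.88 and 3.62. Within slide 1 they were 3.45 and 4.41, and the value against Dsc2 was also 3.45. Over all 6 arrays the differences against Dsc3 and Dsc1 were 3.65 and 4.04. As a description, Dsg4 minus the mean of the other 8 members came to -8.50, -9.50 and -7.83 for WT 1, 2 and 3, and to -4.60, -4.55 and -5.44 for KO 1, 2 and 7. The mean of those other 8 members was 0.0093, -0.46 and -0.30 for WT 1, 2 and 3, and -0.10, -0.007 and -0.13 for KO 1, 2 and 7, so it overlapped between the groups.

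The genes most like Dsg4 over the 6 arrays were Gm7999 (Pearson r 0.996), LOC639211 (r 0.994), Kif26b (r 0.994), Gm13907 (r 0.992) and the hair keratin gene Krt40 (r 0.989). These r mostly follow the difference between groups, since the points share it, and all 5 genes were higher in KO. With each group centred on its mean the most like were Reep3, Snapc1, the unnamed transcript ENSMUST00000114915, Zfp952 and Oip5os1, with r of 0.989 to 0.996 and none past the threshold between groups. In that ranking the WT values of Dsg4 were all at background and that of WT 2 was a surrogate, so it rests in part on background signal. Among members, Dsg4 was nearest to Dsg3 (r 0.86 over 6 arrays), but after centring Dsg4 was nearest to Dsg2 (r 0.81) and Dsg3 to Dsc3 (r 0.57). The nearest member to Dsc2 was Dsg4 (r 0.69), to Dsc1 Dsg1b (r 0.75) and to Dsg1a Dsc1 (r 0.62). Dsg2 and Dsc3 followed each other, with an r of 0.98 over the 6 arrays and 0.96 after centring.

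The plaque and envelope partners of the desmosome did not pass, and whether their differences differed from that of Dsg4 was not tested. Of 10 partners tested, 0 rose and 0 fell, beside 2.42% of all genes called, and the median difference was 0.14. At an unadjusted p under 0.05 there were 3 partners, beside 26.6% of all genes. The same 26.6% stands beside such counts for the lists that follow. Perp, a membrane protein that desmosomes of stratified epithelium need, differed by 0.42 ± 0.14 (limma adjusted p = 0.13), and the plakophilin gene Pkp2 by -0.63 ± 0.21 (adjusted p = 0.14). Plakoglobin, from Jup, differed by -0.27 ± 0.17 and desmoplakin, from Dsp, by -0.084 ± 0.12, both named for their role after their values were seen. The Jup probe was far dimmer, with a scaled WT mean of -2.55 against 5.67 for Dsp, and how well it reports Jup was not tested. The mean of the list relative to WT lay between -0.047 and 0.089 in KO and between -0.076 and 0.054 in WT.

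The adherens junction, the actin-bound neighbour of the desmosome, had 0 of 11 genes past the threshold (3 at an unadjusted p under 0.05) and a median difference of 0.028. P-cadherin, from Cdh3, which marks basal keratinocytes and the hair matrix, differed by 0.95 ± 0.22 (limma adjusted p = 0.075), the nectin gene Nectin3 by -0.92 ± 0.29 (adjusted p = 0.12) and E-cadherin, from Cdh1, by -0.23 ± 0.14 (adjusted p = 0.31), the last named for its role. Of 13 proteases and inhibitors that process or cleave junction proteins, 0 passed (1 at an unadjusted p under 0.05), with a median of 0.18. The kallikrein Klk6 differed by 2.33 ± 0.51 (adjusted p = 0.069) and the metalloprotease Adam9 by -0.40 ± 0.18 (adjusted p = 0.21).

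Markers of the cells that make these cadherins are given here beside them. Hair shaft genes rose in 12 of 17 cases and fell in 0 (14 at an unadjusted p under 0.05), with a median of 3.09. Of all genes, 2.0% rose and 0.422% fell, and these shares stand beside the follicle and stress keratin counts below. Within slide 1, where KO 1 alone is set against WT, the median was 3.08, and fewer genes passed with slide as a block. Among the 12 that rose were the hair keratin genes Krt84 (4.58 ± 0.36), Krt82 (3.20 ± 0.20), Krt35 (3.09 ± 0.22) and Krt36 (3.07 ± 0.27). Averaged over the list and set against the WT mean, KO arrays stood at 2.17 to 2.75 and WT arrays at -0.225 to 0.30. KO 7 was the lowest KO array for the average of this list and for Dsg4, but the highest for Krt84. The highest KO array was KO 1 for the average and KO 2 for Dsg4. The 5 that did not pass were Krt32, Krt81, Msx2, Foxn1 and Krt85, which were named after their values were seen.

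Inner root sheath genes, of the sleeve that moulds the hair, rose in 8 of 9 cases (8 at an unadjusted p under 0.05) with a median of 3.56. Krt73 (3.1 ± 0.22), Krt25 (4.21 ± 0.38), Tchh (3.55 ± 0.34) and Krt71 (3.95 ± 0.38) had the smallest p. With slide as a block 4 of the 9 passed, and Krt71 did not (adjusted p = 0.061). Averaged in the same way, KO arrays stood at 2.71 to 3.72 and WT arrays at -0.31 to 0.56. The part of these follicle genes in the Dsg4 difference was not tested.

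Stress keratins, which the outer root sheath also makes, rose in 2 of 4 cases (4 at an unadjusted p under 0.05). Krt17 differed by 1.03 ± 0.17 (limma adjusted p = 0.036) and Krt16 by 2.73 ± 0.49 (adjusted p = 0.047), and neither passed with slide as a block. Their average stood at 1.90 to 2.87 in KO and at -0.97 to 0.55 in WT. KO 7 was the highest array for this average and for Dsg3. The lowest KO array was KO 2 for the average and KO 1 for Dsg3, so the order of the KO arrays differed. The part of the stress keratins in the Dsg3 difference was not tested.

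Epidermal layer markers did not pass. Of 10 basal keratinocyte genes 0 passed (2 at an unadjusted p under 0.05), with a median of 0.046, and Krt5 differed by 0.53 ± 0.15 (limma adjusted p = 0.11) and Krt14 by 0.49 ± 0.14 (adjusted p = 0.11). Of 12 spinous and granular genes 0 passed (5 at an unadjusted p under 0.05), with a median of 0.36. The keratin gene Krt1 differed by 1.15 ± 0.29 (adjusted p = 0.088) and the filaggrin family gene Flg2 by -0.79 ± 0.19 (adjusted p = 0.084). In value, 10 of these 12 were higher in KO, where 54.3% of all genes were. The list's average ran from 0.14 to 0.50 in KO and from -0.16 to 0.18 in WT. All genes of both lists were well above background on all 6 arrays.

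Markers of other cells in ear skin gave a single call, in the sebaceous gland, beside 2.42% of all genes called. There 1 of 7 passed, the fatty acid elongase gene Elovl3, which rose by 1.55 ± 0.17 (limma adjusted p = 0.0086; 0.10 with slide as a block, where it did not pass), and the wax synthase gene Awat2 differed by -1.50 ± 0.32 (adjusted p = 0.066). Simple epithelium markers, which accompany Dsg2 and Dsc2 elsewhere, had 0 of 5 past the threshold and a median of 0.076, with 1.07 ± 0.30 for Krt18 (adjusted p = 0.11) and -0.38 ± 0.14 for Krt7 (adjusted p = 0.15). All 8 adipocyte markers were lower in value in KO (median -0.99, 0 passed), where 54.3% of all genes were higher. Adipoq (-1.32 ± 0.38) and Lep (-1.51 ± 0.44) had the smallest p. Muscle markers had a median of -0.60 and cartilage markers of -0.66, 0 of 10 and 0 of 7 passed, and Myh1 (-0.55 ± 0.16), Mb (-0.65 ± 0.21), Comp (-0.63 ± 0.13) and Col9a1 (-1.13 ± 0.26) had the smallest p. Fibroblast markers had a median of 0.41 and leukocyte markers of 0.20, with 0 of 7 past the threshold in each. Their smallest p belonged to Col1a2 (0.67 ± 0.19), Col1a1 (0.53 ± 0.19), Cd79a (0.94 ± 0.30) and Cd3g (0.47 ± 0.15), and the B-cell gene Cd79a was well above background on 1 WT array and 2 KO arrays. At an unadjusted p under 0.05 there were 3 of the sebaceous, 2 of the simple epithelium, 3 of the adipocyte, 3 of the muscle, 5 of the cartilage, 3 of the fibroblast and 3 of the leukocyte markers. Over all genes that share was 26.6%. The adipocyte average ranged from -1.36 to -0.40 in KO and from -0.82 to 0.57 in WT, and the muscle average from -1.24 to -0.15 in KO and from -0.56 to 0.46 in WT, so both overlapped between groups. The cartilage average did not overlap, at -0.98 to -0.48 in KO and -0.062 to 0.11 in WT. Nor did the average over all genes tested, which was slightly higher in KO (0.074 to 0.16, against -0.030 to 0.022 in WT).

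**Figure D4:**
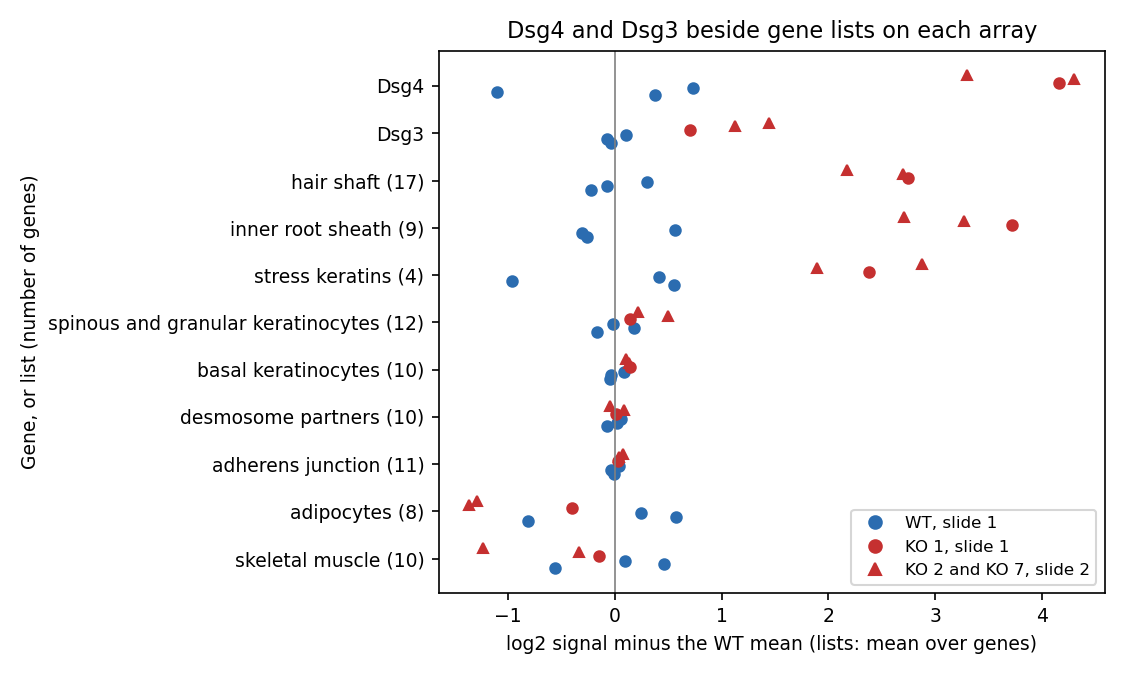
Dsg4, Dsg3 and the means of gene lists on each array, as log2 signal minus the mean of the WT arrays; the number of genes in a list is in parentheses, circles are slide 1, triangles slide 2, blue WT and red KO. The KO arrays stand apart from the WT arrays for Dsg4, Dsg3, hair shaft, inner root sheath and stress keratins, and lie close to them for the desmosome partners. Basal keratinocyte means do not overlap either, by a small margin (0.105 to 0.143 in KO, -0.049 to 0.086 in WT). The mean over all genes tested, not drawn, does not overlap either (0.074 to 0.16 in KO, -0.030 to 0.022 in WT), so the basal margin is no trait of that list.

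Genes that flank the cluster were read as well. On the side of Dsc3, Chst9 was not tested and the N-cadherin gene Cdh2 differed by 0.52 ± 0.16 (limma adjusted p = 0.12). On the side of Dsg2 the nearest gene was Ttr, at -0.64 ± 0.57 (adjusted p = 0.48; well above background on 3 WT arrays and 1 KO array), followed by the lactosylceramide synthase gene B4galt6, at -0.61 ± 0.12 (adjusted p = 0.058). B4galt6 stood at -2.68, -2.88 and -2.82 for WT 1, 2 and 3, and at -3.39, -3.38 and -3.45 for KO 1, 2 and 7. It thus lay lower on every KO array, as did 14.6% of all genes. Cdh2, on the other flank, lay higher on every KO array, as did Dsg3 and Dsg4 within the cluster and 20.7% of all genes.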

How the data were processed

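Sample titles gave each mouse's group and number; the labels name a mouse as the source of each sample, 3 in each group. The deposited scanner files hold the processed signal of each spot as an intensity, made with Agilent Feature Extraction 10.7.3.1 per the file headers, with background subtracted, spatial trends corrected, low values replaced by surrogates, and no scaling between arrays. The authors' series matrix repeats those intensities for all 43340 features it lists. No spot was saturated, and the number of arrays limits the precision.

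Of 43020 non-control spots per array, those with an outlier mark (170 to 249) were left out and a probe's spots were averaged. The 40 probes without a usable spot on some array were dropped, none of them a member's. Values were log2 of the signal minus the log2 of the array's 75th percentile over non-control spots. A probe entered if at least 3 of the 6 arrays had it well above background, which left 29601, and a gene took the entered probe of highest mean. A RefSeq table of GRCm38.p6 gave symbols and gene order only. limma 3.58.1 in R 4.3.3 tested KO against WT, two-sided and without covariates, after a trial on simulated data. Depth here means signal over background: between 72.6% and 78.2% of spots were well above it.

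The members, the 15 lists of 141 genes, the tests and the alternatives were chosen with earlier results of these data known. All members were named, and in each list the called genes of lowest p (4 at most), or, with under 2 called, the 2 genes of lowest p. Likeness to Dsg4 named the 5 genes with the highest r. The alternatives were other background, scaling, filter, probe and variance settings, the series matrix, replicate or slide as a block, other thresholds, and each mouse left out. Raising values below background to the lowest signal well above it was added after the data were seen. Probe sequences are not reported here.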

Additional observations from a re-analysis of the deposited data

How the results depend on the processing

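Dsg4 was higher in KO under all alternatives run, from 1.68 (normexp) to 4.68 (array weights), and from 3.37 to 4.28 over the fits without 1 mouse. It did not pass with slide as a fixed block (4.15, adjusted p = 0.15), with replicate number as a block (4.6, adjusted p = 0.13) or without KO 2 (3.73, adjusted p = 0.064), and it cannot enter a filter on all 6 arrays. Raising background values to the floor, an alternative chosen after seeing the data, gave 2.97 (adjusted p = 0.0066). The groups share only the replicate numbers 1 and 2, whose deviations correlated at 0.083 and 0.054, so the numbers do not pair the mice. With the replicate block, limma called 0 genes higher and 0 lower, and 0 members. At an unadjusted p under 0.05 it had 4497 genes, against 6307 without the block.

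The number of members higher in KO was 2 with normexp, with the percentile taken over probes that all 6 arrays detected, with an intensity trend, at an adjusted p under 0.10 and with the floor, 3 with array weights, 0 with slide as a block, and 0 to 2 without 1 mouse. The second member was Dsg3 in these, with an adjusted p of 0.027, 0.049, 0.032, 0.052 and 0.047, and array weights added Dsg2 (adjusted p = 0.049). Dsg3 also passed with a filter on all 6 arrays (adjusted p = 0.041). No member fell in any.

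Of all genes, 473 rose and 100 fell. The numbers were 859 higher with normexp, 268 and 29 without a filter, 158 and 9 with slide as a block, 4345 and 3083 with array weights (KO 2 had a weight of 5.56 and KO 7 of 0.325), 1552 and 500 at an adjusted p under 0.10, and 184 to 717 higher and 19 to 259 lower without 1 mouse. The median of all genes was 0.045, and -0.065 with the array median as scaling point. Small differences turned sign: Dsg1b was -0.073 and Dsg1c -0.020 with the array median, and -0.11 and -0.033 with slide as a block. Without 1 mouse Dsg1b ranged from -0.11 to 0.20, Dsg1c from -0.068 to 0.24 and Dsc1 from -0.25 to 0.12, and Dsc1 was 0.081 with array weights. Under normexp the Dsg4 difference exceeded that of Dsg3 by 0.64 (exact permutation p = 0.30), and without WT 2 by 2.31 (exact permutation p = 0.20). The cause of these shifts was not tested.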
